A study of Rattus norvegicus with 9 samples.

Results

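The 7 genes described here carry the liver's signals of feeding and fasting: Fgf21, a hormone that the liver secretes, Insr, the insulin receptor, Irs2, an adaptor of that receptor, Foxo1, a transcription factor that insulin switches off, Pck1 and Tat, enzymes that convert amino acid carbon toward glucose, and Ppp1r3b, a subunit that steers a phosphatase to glycogen. They were chosen by name. Each was read by the 1 probe set whose only gene symbol in the array's annotation was that name, so they make up 7 of the 14557 genes named on the array and 7 of its 36685 probe sets. The study names Fgf21, Insr, Irs2, Foxo1, Pck1 and Tat for these same arrays, so the directions of those genes given below are not independent evidence.

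RNA was measured on 9 Affymetrix Rat Gene 2.1 ST arrays in 3 groups. CSF1-Fc livers (n = 4) were whole livers of Sprague Dawley pups that received porcine CSF1-Fc, the macrophage growth factor CSF1 joined to an antibody Fc region, at 1 µg/g under the skin every day for 5 days from birth, and PBS livers (n = 2) came from pups that received the saline vehicle on the same schedule. All of these pups were born to dams that had been injected with PBS in pregnancy and were raised by foster dams, and their livers were taken on day 6. BMDM (n = 3) were macrophages grown from bone marrow of Dark Agouti rats in CSF1 for 7 days, so that strain, culture and cell type differ together between BMDM and either liver group and cannot be told apart. The labels do not give the sex of the pups or say which livers came from the same litter, and the p-values measure only the spread between these arrays.

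In newborn mammals, birth cuts off the supply of maternal glucose, and the liver turns on gluconeogenesis under glucagon and glucocorticoids while insulin falls. Insulin acts through its receptor and the IRS adaptors to activate AKT, which keeps FOXO1 out of the nucleus, represses Pck1 and favours glycogen storage. FGF21 is known mainly from mice, where the lipid of milk induces it in suckling liver through the nuclear receptor PPARA and where amino acid shortage induces it through ATF4. It signals through FGF receptors together with the co-receptor beta-Klotho.

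Values are robust multi-array average (RMA) expression on a log2 scale, in which a difference of 1 is a 2-fold change, and every difference is named with the group subtracted. The median of an array lay between 3.75 and 3.87. PBS liver 2 stood somewhat apart, correlating at 0.951 to 0.962 with the other livers over all probe sets, against 0.971 to 0.985 among the others. Marker genes separated liver from BMDM. The mean of 13 measured hepatocyte markers was 3.37 to 3.80 on BMDM arrays, 11.17 to 11.36 on CSF1-Fc liver arrays and 11.44 to 11.50 on PBS liver arrays. The mean of 12 pan-macrophage markers was 9.02 to 9.31 in BMDM, 10.28 to 10.38 in CSF1-Fc livers and 8.41 to 8.90 in PBS livers. In these bulk samples, fewer cells of a type cannot be told apart from less RNA per cell.

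In CSF1-Fc livers, Ppp1r3b fell 2.95-fold and Fgf21 was lower on every array, though without passing the test, whereas the other 5 genes overlapped between the 2 liver groups. With the p-values of limma adjusted by Benjamini and Hochberg's method across the whole array, 1 of the 7 genes passed an adjusted p of 0.05 as lower and 0 passed as higher. Over the whole array 0.254% of probe sets passed as lower and 1.22% as higher, which is 93 and 449 probe sets. At an unadjusted p under 0.05, 2 of the 7 genes were lower, Fgf21 and Ppp1r3b, and 0 were higher, beside 2349 lower and 2681 higher probe sets over the array. These calls were lost with 1 CSF1-Fc liver fewer, whichever of the 4 it was. In those fits 0 probe sets passed in either direction, although 1846 to 1879 were lower and 2211 to 2387 higher at an unadjusted p under 0.05. A fit without a PBS liver has 1 PBS array left, which is assumed to vary like the other group. Counts and adjusted p of such fits, here and below, rest on that assumption. Without PBS liver 1 the counts were 1371 higher and 1257 lower, and without PBS liver 2 they were 286 higher and 107 lower.

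**Figure D1:**
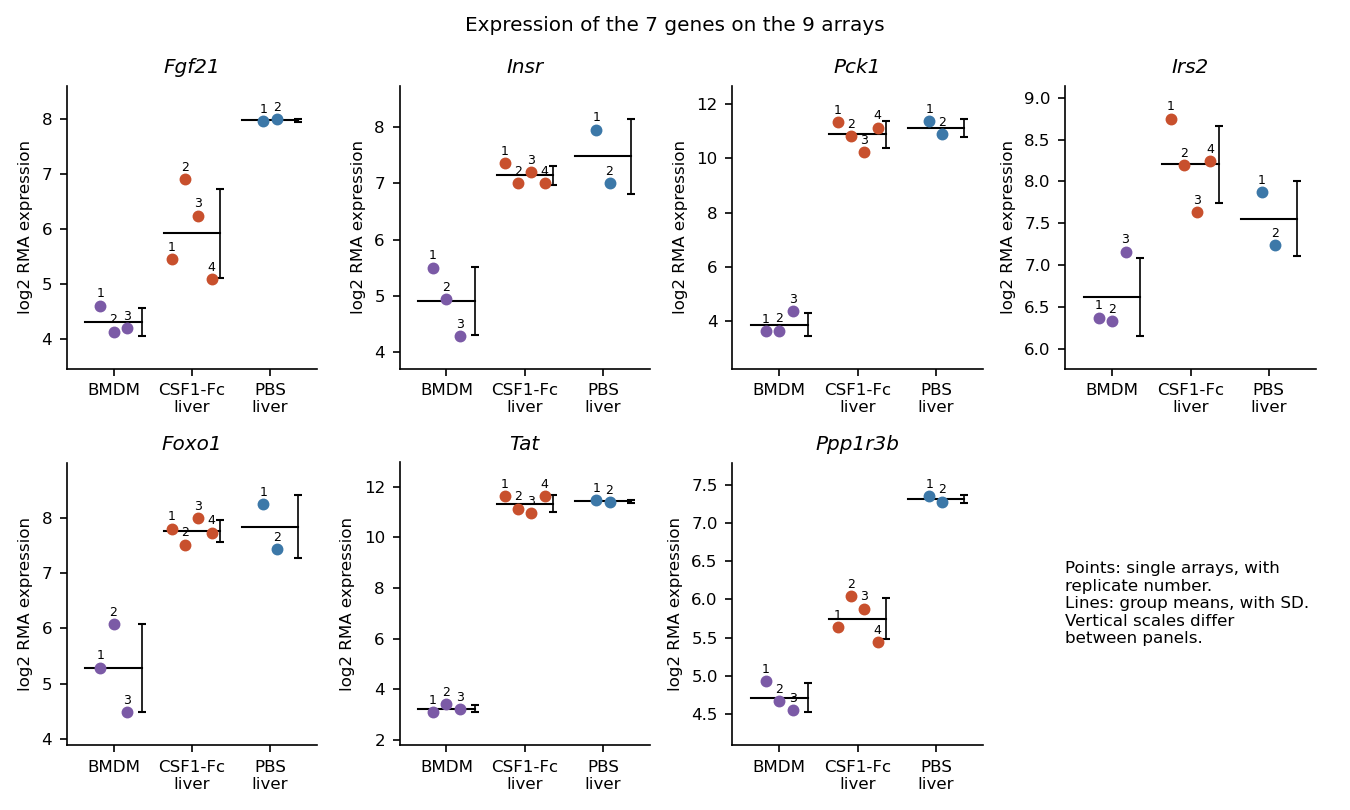
Log2 RMA expression (vertical axes, scaled separately for each gene) of the 7 genes on the 3 BMDM, 4 CSF1-Fc liver and 2 PBS liver arrays, with points for single arrays numbered by replicate, lines for group means and bars for SD. Ppp1r3b and Fgf21 are lower on all 4 CSF1-Fc livers than on both PBS livers, and all 7 genes are lower on the BMDM arrays than on every liver array.

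Fgf21 (probe set 17632931), the fasting and milk-responsive hormone, is shown with its promoter because it had the largest difference of the 7 genes between the liver groups. The sequence is the 250 bases before the RefSeq start on rat assembly GRCr8, chr1:105221377-105221626, on the minus strand, with 3 motif matches in capitals.
Fgf21: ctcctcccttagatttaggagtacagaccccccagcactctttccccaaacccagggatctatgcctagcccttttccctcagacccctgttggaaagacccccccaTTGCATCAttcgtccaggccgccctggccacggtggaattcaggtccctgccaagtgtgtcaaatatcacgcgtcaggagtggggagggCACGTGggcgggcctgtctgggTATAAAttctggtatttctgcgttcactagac
From the 5′ end the capitals mark TTGCATCA, which is the C/EBP-ATF element TGATGNAA read on the other strand (143 to 136 bases before the start), the E-box CACGTG (54 to 49 bases before it) and the TATA box TATAAA (32 to 27 bases before it). Over 33469 RefSeq promoter windows of the same length, searched on both strands, TGATGNAA was held by 3.4%, CACGTG by 5.59% and TATAAA by 12.9%. None of the matches overlapped another. They describe the letters only.

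Fgf21 expression was 5.45, 6.90, 6.24 and 5.08 in the 4 CSF1-Fc livers, against 7.96 and 8.0 in the 2 PBS livers. All 4 CSF1-Fc livers lay below both PBS livers, and the highest of them was CSF1-Fc liver 2. The group means were 5.92 ± 0.81 (SD, n = 4) in CSF1-Fc livers and 7.98 ± 0.03 (SD, n = 2) in PBS livers, a difference of -2.06 (SE 0.50, 95% interval -3.27 to -0.85), or 4.17-fold lower with an interval of 1.80- to 9.66-fold. Only 17 of the 36685 probe sets had a lower difference. Fgf21 nevertheless did not pass after adjustment over all probe sets (limma, unadjusted p = 0.00577, adjusted p = 0.137), and it did not pass under any of the 14 alternatives, in which its difference ran from -2.38 to -1.78 and its adjusted p from 0.0633 to 0.571. The lack of overlap is common in 4 against 2 arrays: 10.4% of all probe sets had every CSF1-Fc liver below both PBS livers.

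Ppp1r3b (probe set 17712099) encodes the main hepatic glycogen-targeting subunit of protein phosphatase 1, which brings the phosphatase to glycogen synthase and so favours glycogen storage. Its expression was 5.64, 6.04, 5.88 and 5.44 in CSF1-Fc livers and 7.35 and 7.28 in PBS livers. Every CSF1-Fc liver was lower than both PBS livers, with a gap far wider than the spread within either group. The means were 5.75 ± 0.27 (SD, n = 4) in CSF1-Fc livers and 7.31 ± 0.05 (SD, n = 2) in PBS livers. The difference of -1.56 (SE 0.19, 95% interval -2.03 to -1.09) was a 2.95-fold fall, with an interval of 2.13- to 4.09-fold (limma, adjusted p = 0.0253). Of all probe sets, 81 had a lower difference. The size hardly moved when single arrays were left out (-1.66 to -1.46), but the adjusted p rose to 0.0902, 0.0713, 0.0923 and 0.0795 without CSF1-Fc liver 1, 2, 3 and 4 and to 0.0843 without PBS liver 2, and it was 0.0450 without PBS liver 1.

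The hepatocyte markers themselves were slightly lower in CSF1-Fc livers: 10 of 13 were lower in mean, beside 20076 of the 36685 probe sets. By limma 0 of the 13 passed in either direction (unadjusted, 2 were lower and 0 higher). The median difference was -0.09, against -0.03 over all probe sets. The 11 plasma protein genes used for centring were all among these 13 markers and are not a second set. Of them 0 passed (0 higher and 1 lower unadjusted, median -0.08). With each array centred on the mean of these genes, Ppp1r3b still fell by 1.40 (adjusted p = 0.0270), and Fgf21 had a difference of -1.89 (adjusted p = 0.138). The centring moved the median difference of all probe sets only from -0.03 to 0.13, a shift too small to turn the sign of either difference. The part of hepatocyte content in them was not tested.

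**Figure D2:**
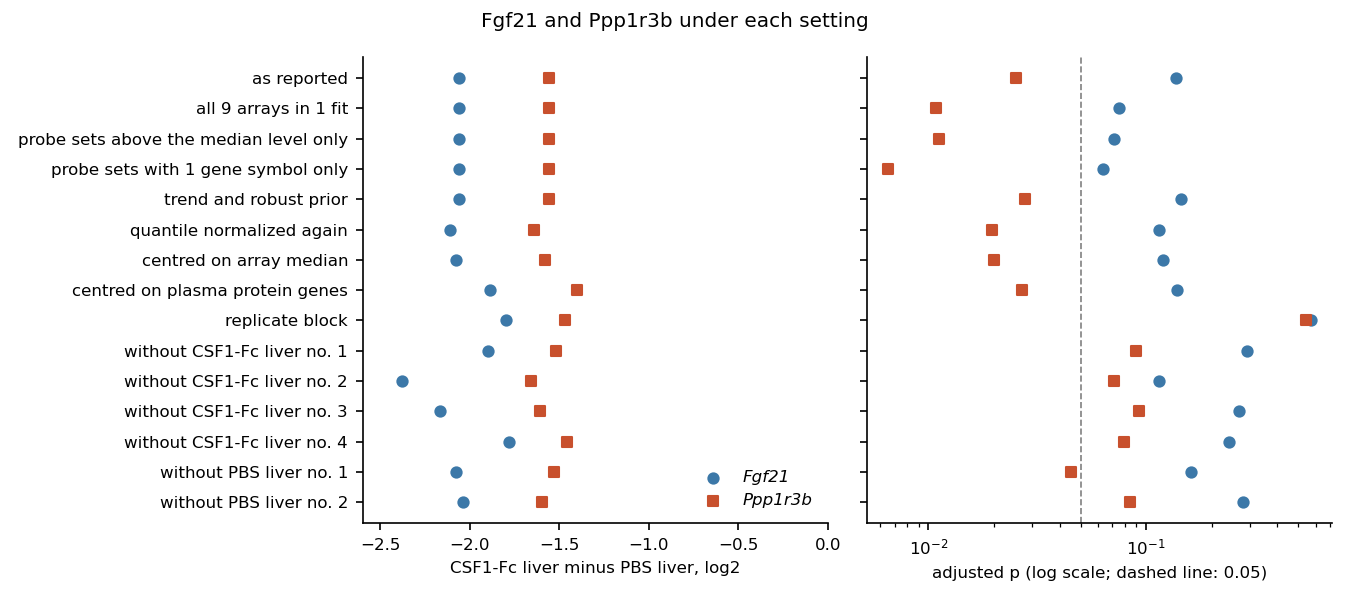
Difference in log2 expression of Fgf21 (circles) and Ppp1r3b (squares) between CSF1-Fc and PBS livers (left) and its adjusted p on a log scale (right) as reported and under 14 alternatives, with a dashed line at 0.05. The differences stay between -2.38 and -1.40, Fgf21 stays right of the line throughout, and Ppp1r3b crosses it without any single CSF1-Fc liver, without PBS liver 2 and with the replicate number as a block.

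Insr (probe set 17671354), the receptor through which the liver senses insulin, was at 7.36, 7.00, 7.20 and 7.00 in CSF1-Fc livers and at 7.95 and 7.00 in PBS livers. The groups overlapped, because PBS liver 2 lay as low as the lowest CSF1-Fc livers and only PBS liver 1 was above all of them. The difference was -0.33 (SE 0.28, 95% interval -1.0 to 0.34, adjusted p = 0.645), so that anything from a 2.00-fold fall to a 1.27-fold rise lay within the interval. Without PBS liver 1 it turned to 0.14, and without PBS liver 2 it was -0.80.

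Irs2 (probe set 17709452), the insulin receptor substrate that carries the signal of the receptor to phosphoinositide 3-kinase and is itself induced by fasting through FOXO1, was the only one of the 7 genes with a higher mean in CSF1-Fc livers. It was at 8.75, 8.19, 7.63 and 8.24 in CSF1-Fc livers and at 7.87 and 7.24 in PBS livers. CSF1-Fc liver 3 lay between the PBS livers and the other 3 CSF1-Fc livers above both. The difference of 0.65 (SE 0.33, 95% interval -0.16 to 1.46, adjusted p = 0.471), a ratio of 1.57, did not pass.

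Foxo1 (probe set 17738449), the factor that drives fasting genes when insulin is low, was at 7.80, 7.51, 7.99 and 7.73 in CSF1-Fc livers and at 8.24 and 7.43 in PBS livers. All 4 CSF1-Fc livers lay between the 2 PBS livers. The difference of -0.08 (SE 0.26, 95% interval -0.70 to 0.55, adjusted p = 0.927) had no stable sign: it was 0.33 without PBS liver 1, -0.49 without PBS liver 2, 0.01 without CSF1-Fc liver 2 and 0.09 after centring on the plasma protein genes.

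Pck1 (probe set 17769336) encodes cytosolic phosphoenolpyruvate carboxykinase, the enzyme that commits carbon to gluconeogenesis and that glucagon induces and insulin represses. Its promoter is shown beside that of Fgf21 as the textbook example of a gene read by both cAMP and nuclear receptors. It is the 250 bases before the RefSeq start on GRCr8, chr3:182348322-182348571, on the plus strand, with 2 motif matches in capitals.
Pck1: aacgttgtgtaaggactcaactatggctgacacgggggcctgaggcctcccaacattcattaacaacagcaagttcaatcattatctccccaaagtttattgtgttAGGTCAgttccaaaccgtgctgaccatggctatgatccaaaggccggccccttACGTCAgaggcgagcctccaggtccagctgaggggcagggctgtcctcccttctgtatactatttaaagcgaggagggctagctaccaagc
From the 5′ end the capitals mark the nuclear receptor hexamer AGGTCA (144 to 139 bases before the start) and ACGTCA, the part that cAMP response elements share (91 to 86 bases before it). Of the same 33469 windows, 14.1% held AGGTCA and 6.95% held ACGTCA on either strand. Of the other members with a promoter entry, Tat held the C/EBP-ATF element as TGATGTAA (232 to 225 bases before the start), Insr held the FOXO element GTAAACA on its other strand (100 to 94 bases before the start, an element held by 3.21% of windows), and Foxo1 held none of the 6 motifs searched. Entries matched for 5 of the 7 genes, the exceptions being Irs2 and Ppp1r3b.

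Pck1 expression was 11.34, 10.83, 10.22 and 11.14 in CSF1-Fc livers and 11.37 and 10.89 in PBS livers. CSF1-Fc livers 2 and 3 lay below both PBS livers and the other 2 between them. The difference was -0.25 (SE 0.33, 95% interval -1.06 to 0.57, adjusted p = 0.790).

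Tat (probe set 17730018) encodes tyrosine aminotransferase, the first enzyme of tyrosine breakdown, which glucocorticoids and glucagon induce in liver around birth. It was at 11.62, 11.13, 10.96 and 11.62 in CSF1-Fc livers and at 11.47 and 11.38 in PBS livers. CSF1-Fc livers 1 and 4 lay above both PBS livers and CSF1-Fc livers 2 and 3 below both. The difference of -0.10 (SE 0.23, 95% interval -0.66 to 0.47, adjusted p = 0.894) turned to 0.11 after another quantile normalization, to 0.07 after centring on the plasma protein genes and to 0.03 without CSF1-Fc liver 3.

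**Figure D3:**
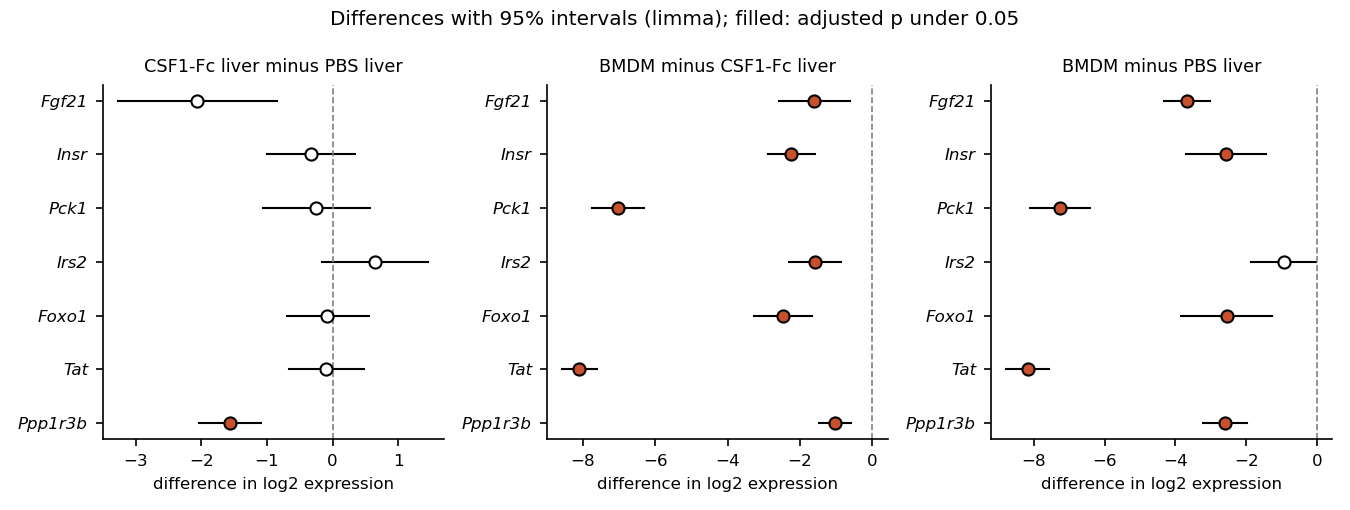
Differences in log2 expression (horizontal axes) of the 7 genes for CSF1-Fc liver minus PBS liver, BMDM minus CSF1-Fc liver and BMDM minus PBS liver, with 95% intervals and filled points where the adjusted p was under 0.05. Between the liver groups only Ppp1r3b is filled, at -1.56, and against BMDM all but Irs2 in the comparison with PBS liver are filled.

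The 4 CSF1-Fc livers also differed among themselves, and of the 7 genes Fgf21 varied most. Its SD of 0.81 among them exceeded that of 97.9% of probe sets, whose median SD in this group was 0.19. The SD of Pck1 (0.49) exceeded that of 90.6% of probe sets and the SD of Irs2 (0.46) that of 89.1%, whereas Foxo1 (0.20) and Insr (0.18) lay near the middle, above 54% and 46% of probe sets.

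Some genes ranked the livers alike. Fgf21 and Ppp1r3b shared one order, lowest in CSF1-Fc liver 4, then liver 1, then liver 3 and highest in liver 2. Relative to the group mean, Fgf21 was at -0.84 in liver 4 and 0.98 in liver 2, and Ppp1r3b was at -0.31 in liver 4 and 0.29 in liver 2. Pck1 and Irs2 shared another order, lowest in liver 3, then liver 2, then liver 4 and highest in liver 1. Tat was likewise lowest in liver 3 and next lowest in liver 2, but highest in liver 4. With 4 livers these orders are a description, and no test was run on them.

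**Figure D4:**
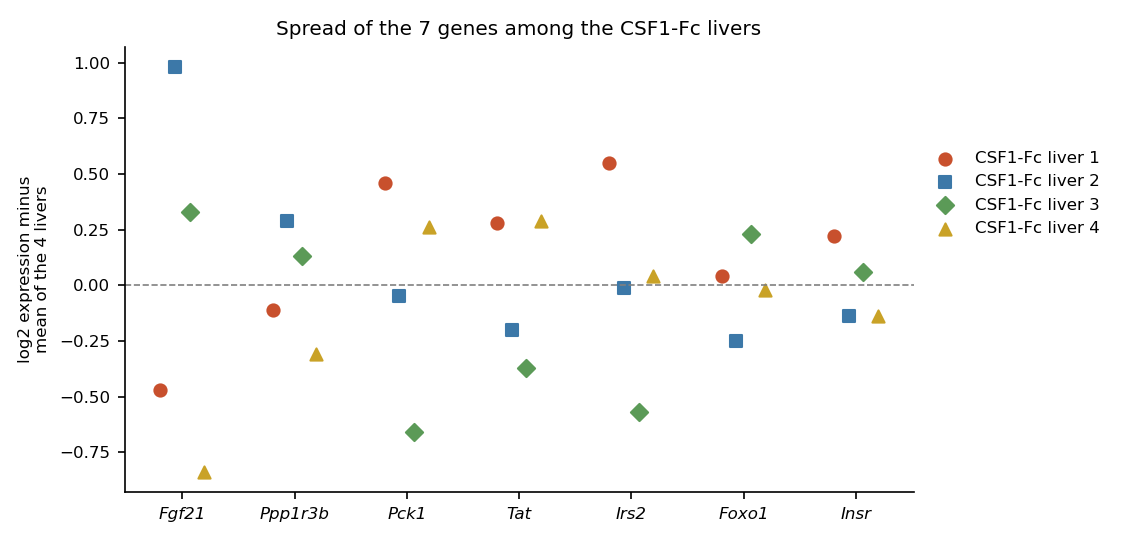
Log2 expression of each of the 7 genes in the 4 CSF1-Fc livers, minus the mean of those 4 livers (vertical axis), with one marker shape per liver. Fgf21 spreads from -0.84 in liver 4 to 0.98 in liver 2, Ppp1r3b keeps the same order over a narrower range, and Pck1, Irs2 and Tat are lowest in liver 3.

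Genes whose expression ran most like each of the 7 were ranked by Pearson's r over the 6 livers among 8781 genes with 1 symbol and a liver mean above the array's median. The 6 points share their treatment groups, so r is a measure of likeness and nothing more. Nearest to Fgf21 were G0s2 (r = 0.990), Xkr9 (0.989) and Paqr9 (0.981). Nearest to Ppp1r3b were Mvd (0.994), Axin2 (0.991) and Cutal (0.991), of which Axin2 itself fell in CSF1-Fc livers (-1.16, adjusted p = 0.0345). Nearest to Insr were Gtf2ird1 (0.997), Slc25a12 (0.993) and Vangl2 (0.993), nearest to Irs2 were Caskin1 (0.973), Cstf1 (0.966) and Agt (0.962), and nearest to Foxo1 were Mttp (0.992), Tab3 (0.991) and Gmeb2 (0.991). For Pck1 they were Rbbp4l1 (0.983), B4galt6 (0.971) and Cpn1 (0.959), and for Tat Lpin1 (0.998), Lysmd1 (0.965) and Fam180a (0.960).

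Over all 9 arrays, where the gap between BMDM and liver enters, Fgf21 and Ppp1r3b were each other's nearest gene (r = 0.982). Next came G0s2 (0.973) and Tpbg (0.957) for Fgf21, and Rmdn2 (0.978) and Sucnr1 (0.972) for Ppp1r3b. Rmdn2 and Sucnr1 also fell in CSF1-Fc livers, with differences of -1.68 (adjusted p = 0.0134) and -2.48 (adjusted p = 0.0135). G0s2 and Tpbg did not pass, at -1.88 (adjusted p = 0.163) and -0.75 (adjusted p = 0.128). All were picked by likeness over arrays that include both liver groups, so their differences are not independent of those of Fgf21 and Ppp1r3b. Only 3 genes exceeded 0.95 with Fgf21 and 21 with Ppp1r3b over the 9 arrays, whereas 1383 did so with Tat, led by Ass1, Afp and Rbp4 (each 0.999), and 1300 with Pck1, led by Scap (0.999), Hrg and Cyp2b1 (each 0.998). For Insr the nearest were Cpne8, Zbtb20 and Spindoc (each 0.995), for Foxo1 Tut4 (0.996), Itga1 (0.994) and Parg (0.993), and for Irs2 Dnaaf5 (0.971), Gbp6 (0.959) and St3gal1 (0.955).

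The pathways around the 7 genes gave few calls between the liver groups. Of 14 lists of pathway genes, 2 had members that passed, all higher in CSF1-Fc livers. These were Ptpn1 and Inpp5d among the inhibitors of insulin signalling, and Me1 among the genes that insulin induces in liver.

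Among 12 measured genes of the FGF21 receptor complex and the regulators upstream of Fgf21, 0 passed by limma (unadjusted, 1 higher and 0 lower), with a median difference of 0.05. Ppara, the receptor that induces Fgf21 in fasting, was at 10.23, 9.67, 10.07 and 9.82 in CSF1-Fc livers and at 10.55 and 9.68 in PBS livers (-0.16, SE 0.28, adjusted p = 0.841). Fgfr4, the main FGF receptor of hepatocytes, was at -0.44 (SE 0.18, adjusted p = 0.371) and the nuclear receptor Nr4a1 at 0.67 (SE 0.25, adjusted p = 0.311). Klb, the gene of beta-Klotho, was not matched to a probe set by its symbol and was not analysed here. Fgfr4 was the only FGF receptor among the 12 genes, so the FGF21 receptor complex was covered only in part. Of 14 other FGF ligands, 0 passed (1 higher and 0 lower unadjusted, median -0.13), with the furthest Fgf23, the phosphate hormone, at 1.43 (SE 0.41, adjusted p = 0.194) and Fgf11 at -0.54 (SE 0.35, adjusted p = 0.562).

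None of the measured targets of PPARA or ATF4 passed, where 0.254% of all probe sets passed as lower and 1.22% as higher. Unadjusted, 2349 of the 36685 probe sets were lower and 2681 higher. The part of either factor in the Fgf21 difference was not tested. Of 13 PPARA targets, 0 passed (1 higher and 2 lower unadjusted, median -0.25). Fabp1, the fatty acid binding protein of liver, was at -0.75 (SE 0.29, adjusted p = 0.324) and Acot2, a mitochondrial acyl-CoA thioesterase, at 0.69 (SE 0.19, adjusted p = 0.17). Of 11 ATF4 targets, 0 passed (0 higher and 3 lower unadjusted, median -0.37). Trib3, a pseudokinase of the stress response, was at 5.25, 5.24, 5.52 and 5.26 in CSF1-Fc livers, below the 5.93 and 6.11 of PBS livers (-0.71, SE 0.14, adjusted p = 0.0876). Chac1, which breaks down glutathione, was at 5.65, 7.40, 5.62 and 5.70 in CSF1-Fc livers and at 6.75 and 7.43 in PBS livers, so that CSF1-Fc liver 2 alone stood at the PBS level (-1.0, SE 0.56, adjusted p = 0.502). That liver also had the highest Fgf21 of its group.

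Of 18 measured genes of the insulin signalling cascade, 0 passed by limma (unadjusted, 1 higher and 0 lower), with a median of 0.20. The furthest were Irs4, another adaptor of the receptor, at -0.53 (SE 0.30, adjusted p = 0.507), and the kinase Akt1 at 0.43 (SE 0.17, adjusted p = 0.355).

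Of 11 inhibitors of the cascade, 2 rose and 0 fell (3 higher and 3 lower unadjusted), 7 were lower in mean and the median was -0.30. Ptpn1, the tyrosine phosphatase PTP1B that dephosphorylates the insulin receptor, was at 7.95, 7.93, 7.80 and 7.75 in CSF1-Fc livers and at 6.21 and 6.40 in PBS livers (1.55, SE 0.13, 2.93-fold, adjusted p = 0.0128). Inpp5d, the blood cell phosphatase SHIP1 that removes the lipid product of phosphoinositide 3-kinase, was at 7.86, 8.07, 8.29 and 8.08 in CSF1-Fc livers and at 6.40 and 6.06 in PBS livers (1.84, SE 0.17, 3.58-fold, adjusted p = 0.0135). Lack of overlap is common in 4 against 2 arrays. Every CSF1-Fc liver lay below both PBS livers for 10.4% of all probe sets, and the share above both was not counted. For each of these 2 genes, every CSF1-Fc liver was above both PBS livers. Without single arrays their adjusted p ran from 0.0264 to 0.0720 for Ptpn1 and from 0.0264 to 0.0734 for Inpp5d, passing without PBS liver 1 or PBS liver 2 and missing without any CSF1-Fc liver (0.0579, 0.0703, 0.0614 and 0.0720 for Ptpn1 and 0.0579, 0.0713, 0.0614 and 0.0734 for Inpp5d without CSF1-Fc liver 1, 2, 3 and 4).

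Both genes were also expressed by macrophages grown in culture, at a mean of 7.29 for Ptpn1 and 7.97 for Inpp5d in BMDM. Markers of macrophages rose with them. Of 12 pan-macrophage markers 8 rose and 0 fell (median 1.80), among them Csf1r, the CSF1 receptor, by 1.82 (SE 0.15, adjusted p = 0.0128). Of 10 Kupffer cell markers 6 rose and 0 fell (median 1.46), and their mean was 9.27 to 9.50 in CSF1-Fc livers and 7.85 to 8.17 in PBS livers. The part of macrophage content in the rise of Ptpn1 and Inpp5d was not tested.

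Of 13 FOXO family members and insulin-repressed FOXO1 targets, 0 passed (2 higher and 1 lower unadjusted, median -0.05). Igfbp1, a hepatic IGF binding protein that insulin represses, was at 11.65, 10.97, 10.95 and 11.26 in CSF1-Fc livers and at 11.30 and 11.20 in PBS livers (-0.05, SE 0.23, adjusted p = 0.95). Apoc2, the cofactor of lipoprotein lipase, was at 12.09, 12.23, 12.01 and 12.07 in CSF1-Fc livers and at 12.19 and 12.42 in PBS livers (-0.20, SE 0.13, adjusted p = 0.564). The study names both on these arrays. The furthest were Gadd45a, a growth arrest gene, at -1.32 (SE 0.41, adjusted p = 0.234), and Klf15, a fasting-induced factor of amino acid breakdown, at -0.74 (SE 0.61, adjusted p = 0.645). Klf15 was at 6.04, 4.82, 3.73 and 5.45 in CSF1-Fc livers, in the same order of livers as Pck1, and at 5.52 and 5.98 in PBS livers. G6pc, the gene of glucose-6-phosphatase, was not matched under that symbol or G6pc1 and was not analysed here.

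Of 9 genes that insulin induces in liver, 1 rose and 0 fell (1 higher and 3 lower unadjusted, median -0.31). Me1, malic enzyme, which supplies NADPH for lipid synthesis, was at 6.71, 7.33, 7.67 and 6.98 in CSF1-Fc livers and at 5.20 and 5.33 in PBS livers. Its rise of 1.90 (SE 0.28, adjusted p = 0.0369) missed the threshold without any 1 array (0.0611 to 0.136) and in 1 fit over all 9 arrays (0.0513). BMDM held Me1 at 6.77, 5.62 and 5.64.

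Of 15 gluconeogenesis enzymes and regulators other than Pck1, 0 passed (0 higher and 1 lower unadjusted, median -0.05), with Cebpa, a factor of hepatocyte metabolism, at -0.58 (SE 0.25, adjusted p = 0.391) and Fbp2 at 0.54 (SE 0.27, adjusted p = 0.463). These 15 were the measured part of 20 listed genes, and neither Fbp1 nor G6pc was among them, so the pathway was covered only in part. Of 9 genes that glucocorticoids induce in liver, the class to which Tat belongs, 0 passed (0 higher and 3 lower unadjusted, median -0.34). The furthest was Tdo2, the tryptophan-degrading dioxygenase, at 3.41, 3.05, 3.44 and 4.73 in CSF1-Fc livers and at 6.11 and 4.83 in PBS livers (-1.81, SE 0.55, adjusted p = 0.222). Lcn2, which neutrophils also make, was at -0.92 (SE 0.23, adjusted p = 0.149). The 11 neutrophil markers measured, among them Lcn2, had an array mean of 5.21 to 6.15 in CSF1-Fc livers and 6.81 to 7.39 in PBS livers, and 0 of them passed (0 higher and 7 lower unadjusted, median -0.97). Their part in the Lcn2 value was not tested. Of 3 genes of tyrosine and phenylalanine breakdown beyond Tat, 0 passed (0 higher and 2 lower unadjusted, median -0.62), with Hgd at -0.68 (SE 0.19, adjusted p = 0.196) and Qdpr at -0.62 (SE 0.16, adjusted p = 0.160).

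None of the glycogen genes measured around Ppp1r3b passed, but not all of those listed were measured. Of 16 listed enzymes of glycogen synthesis and breakdown, 7 were measured, and Gys2, the liver-type glycogen synthase, was not among them. Of 7 other targeting and catalytic subunits of the phosphatase, 0 passed (0 higher and 0 lower unadjusted, median 0.03). The furthest were Ppp1ca, a catalytic subunit, at 0.39 (SE 0.31, adjusted p = 0.625) and Ppp1r3d at 0.39 (SE 0.23, adjusted p = 0.526). Of 7 enzymes of glycogen synthesis and breakdown, 0 passed (2 higher and 0 lower unadjusted, median -0.10), and the highest were Gys1, the muscle-type glycogen synthase, at 0.86 (SE 0.18, adjusted p = 0.0946) and Gyg1, the primer protein glycogenin, at 0.61 (SE 0.22, adjusted p = 0.291). Both were expressed by BMDM, at means of 6.10 and 7.87. Of 7 receptors of fasting hormones and IGF binding proteins, 0 passed (1 higher and 3 lower unadjusted, median -0.15). Igfbp3 was at -0.97 (SE 0.28, adjusted p = 0.197) and Gcgr, the glucagon receptor, at 8.88, 8.64, 8.68 and 8.52 in CSF1-Fc livers and 9.11 and 9.30 in PBS livers (-0.52, SE 0.15, adjusted p = 0.192).

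Of the remaining marker lists, 1 held genes that passed between the liver groups. Of 8 stellate cell and fibroblast markers 2 fell, Lum at -2.17 (SE 0.17, adjusted p = 0.0128) and Dcn at -1.35 (SE 0.18, adjusted p = 0.0317), and 0 rose (median -0.48). Dcn missed the threshold without any 1 array (adjusted p = 0.0513 to 0.120), and Lum ran from 0.0276 to 0.0720, missing it without any CSF1-Fc liver. In limma 0 of 6 erythroid markers (1 higher and 0 lower unadjusted, median 0.07), 0 of 8 endothelial markers (1 higher and 2 lower unadjusted, median -0.25) and 0 of 4 cholangiocyte markers (0 higher and 0 lower unadjusted, median -0.39) passed.

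**Figure D5:**
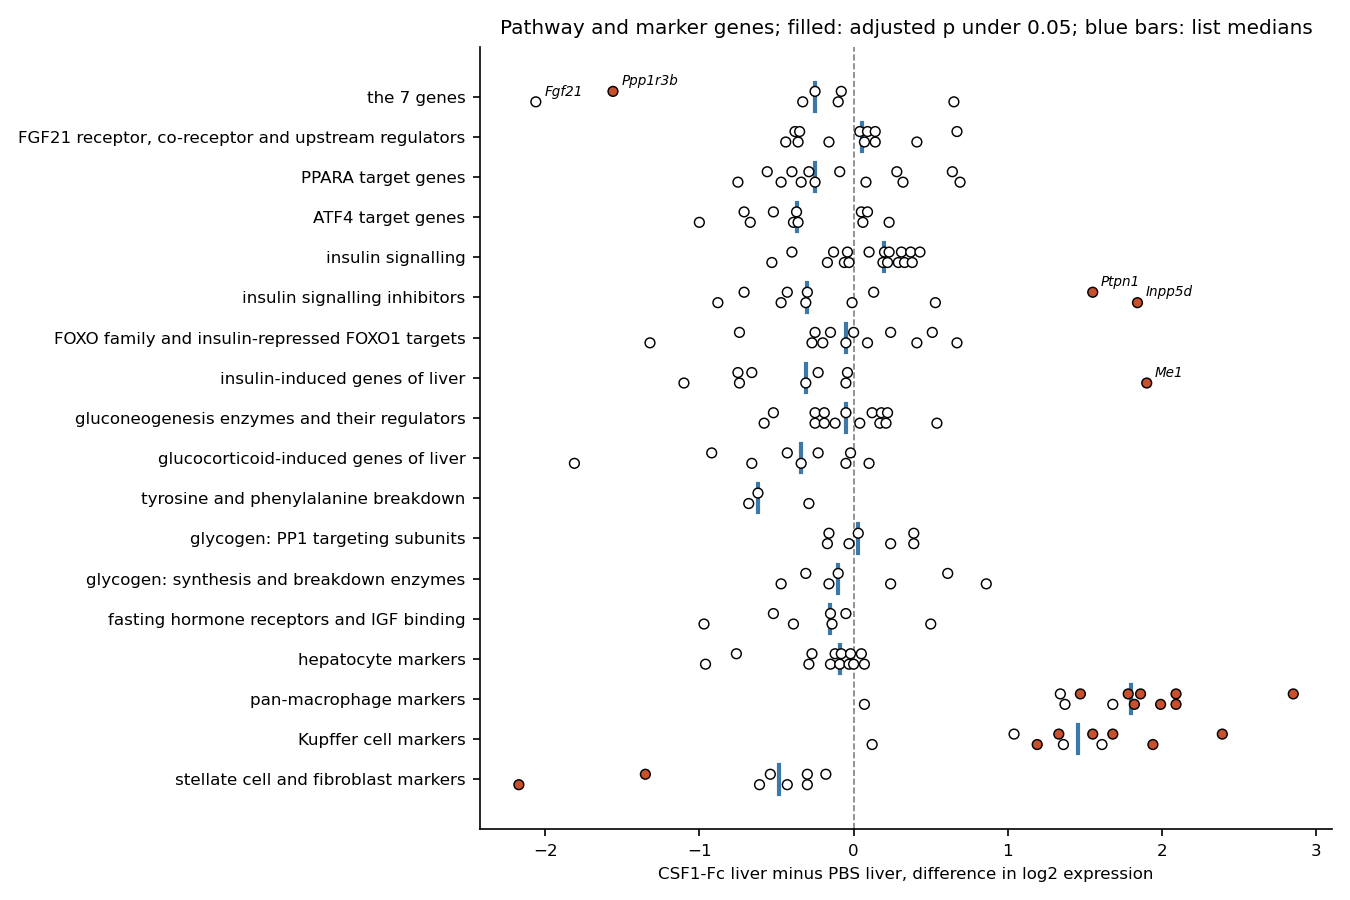
Difference in log2 expression between CSF1-Fc and PBS livers (horizontal axis) for the 7 genes and each measured gene of the lists drawn, 1 row per list. The lists are 4 marker lists and the 14 pathway lists except that of other FGF ligands, which is not drawn. Filled circles mark an adjusted p under 0.05 and blue bars mark list medians. Ppp1r3b is the only filled circle left of 0 outside the stellate cell and fibroblast markers, and Ptpn1, Inpp5d and Me1 are the only filled ones right of 0 outside the macrophage and Kupffer cell markers.

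BMDM gave the level of the 7 genes in macrophages grown in CSF1 without other liver cells. All 7 were lower in BMDM than in CSF1-Fc livers, with no overlap, and all 7 passed (limma), where 17.5% of probe sets passed as lower and 19.9% as higher and 20.1% had every BMDM array below every CSF1-Fc liver. Against PBS livers all 7 were lower without overlap and 6 passed, where 10.4% of probe sets passed as lower, 10.2% as higher and 21.0% were lower without overlap. These comparisons share the BMDM arrays with each other and the livers with the comparison above. Levels near the median of an array were not called present or absent here.

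The enzymes of the hepatocyte stood furthest apart. Tat was at 3.11, 3.41 and 3.21 in BMDM, and its difference was -8.09 (SE 0.21, adjusted p = 3.48e-07) from CSF1-Fc livers and -8.18 (SE 0.25, adjusted p = 0.000187) from PBS livers. Pck1 was at 3.61, 3.63 and 4.35 in BMDM, and its difference was -7.02 (SE 0.31, adjusted p = 2.51e-06) from CSF1-Fc livers and -7.27 (SE 0.35, adjusted p = 0.000225) from PBS livers. Both lay under the array median on the BMDM arrays, except for Pck1 in BMDM 3, so that the folds of 272 for Tat and 130 for Pck1 against CSF1-Fc livers compare RMA values and are not a ratio of measured transcripts.

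The group means rose from BMDM through CSF1-Fc liver to PBS liver for all 7 genes but Irs2. Of them, Fgf21 and Ppp1r3b alone were also lower on every CSF1-Fc liver than on both PBS livers, as were 10.4% of all probe sets. Fgf21 was at 4.60, 4.13 and 4.19 in BMDM (mean 4.31 ± 0.26, SD, n = 3). Its difference was -1.61 (SE 0.42, adjusted p = 0.0188) from CSF1-Fc livers and -3.67 from PBS livers (SE 0.27, 12.7-fold lower, adjusted p = 0.000621). The first of these calls was lost without BMDM 2, BMDM 3 or CSF1-Fc liver 3 (adjusted p = 0.0591, 0.0533 and 0.0532). Ppp1r3b was at 4.93, 4.67 and 4.55 in BMDM (mean 4.72 ± 0.19, SD, n = 3), which was -1.03 (SE 0.19, adjusted p = 0.00354) against CSF1-Fc livers and -2.59 (SE 0.26, adjusted p = 0.00156) against PBS livers. For Ppp1r3b each neighbouring pair of groups in that order passed, and for Fgf21 only the step between BMDM and CSF1-Fc livers did.

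The insulin signalling genes were lower in BMDM by smaller margins than Tat and Pck1. Insr was at 5.50, 4.94 and 4.29 in BMDM (mean 4.91 ± 0.60, SD, n = 3), against means of 7.14 ± 0.18 (SD, n = 4) in CSF1-Fc livers and 7.47 ± 0.67 (SD, n = 2) in PBS livers. Its difference was -2.24 (SE 0.28, adjusted p = 0.000470) from CSF1-Fc livers and -2.57 (SE 0.47, adjusted p = 0.0129) from PBS livers, the second losing its call without PBS liver 1 (-2.10, adjusted p = 0.103) or BMDM 2 (-2.58, adjusted p = 0.0530). Foxo1 was at 5.29, 6.07 and 4.48 in BMDM, with a difference of -2.48 (SE 0.35, adjusted p = 0.000883) from CSF1-Fc livers and -2.55 (SE 0.53, adjusted p = 0.0196) from PBS livers. The second missed the threshold without BMDM 1, PBS liver 1 or PBS liver 2 (adjusted p = 0.0705, 0.154 and 0.0798).

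Irs2 was the only one of the 7 genes that did not pass between BMDM and PBS livers. It was at 6.37, 6.33 and 7.16 in BMDM, where BMDM 3 lay just below the lower PBS liver at 7.24. Its difference was -1.58 (SE 0.31, adjusted p = 0.00500) from CSF1-Fc livers and -0.94 (SE 0.38, 95% interval -1.86 to -0.01, adjusted p = 0.153) from PBS livers, which did not pass. Foxo1 and Insr varied more among the BMDM cultures (SD 0.79 and 0.60) than among the CSF1-Fc livers (SD 0.20 and 0.18), where the median SD over all probe sets was 0.35 in BMDM and 0.19 in CSF1-Fc livers.

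Lists of hepatocyte function differed in how many of their genes were lower in BMDM than in CSF1-Fc livers. Over the whole array 17.5% of probe sets passed as lower there and 19.9% as higher. Of 13 PPARA targets 12 were lower and 0 higher (median -4.41), and of 7 receptors of fasting hormones and IGF binding proteins 7 were lower (median -4.52), with Igfbp1 at -7.77 (SE 0.29, adjusted p = 1.28e-06) and Gcgr at -1.98 (SE 0.14, adjusted p = 2.80e-05). All 3 genes of tyrosine and phenylalanine breakdown were lower (median -5.47). Of 15 gluconeogenesis genes 8 were lower, 0 were higher and 7 did not pass (median -0.93). Of 9 glucocorticoid-induced genes 6 were lower and 1 higher (median -2.32), and of 7 glycogen enzymes 5 were lower and 1, Gys1, was higher by 0.60 (median -0.86). Ppara was at -6.57 (SE 0.26, adjusted p = 1.68e-06) and Fgfr4 at -4.31 (SE 0.12, adjusted p = 4.36e-07).

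Genes of the insulin signalling cascade differed in both directions. Of 18 genes 2 were higher in BMDM, 7 were lower and 9 did not pass (median -0.30, beside 0.14 over all probe sets). Over the whole array 19.9% of probe sets passed as higher, a larger share than 2 of 18, and 17.5% passed as lower. Of 11 ATF4 targets 4 were higher and 5 lower in BMDM than in CSF1-Fc livers, the 4 being Atf3 (4.88), Slc7a11 (4.84), Gdf15 (2.66) and Mthfd2 (2.00), which are named here after their values were seen. Atf4 itself was 0.95 higher in BMDM (SE 0.14, adjusted p = 0.00140), while Fgf21 was lower.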

How the data were processed

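RNA of 4 CSF1-Fc livers, 2 PBS livers and 3 BMDM cultures was measured on Affymetrix Rat Gene 2.1 ST arrays. The authors purified RNA from liver (TRIzol, then RNeasy), selected samples on RNA integrity, checked array quality in Expression Console and applied RMA in R through the Transcription Analysis Console, so the deposited values are log2 RMA expression. Whether all 9 arrays were normalized in 1 run, and the genome build of the probe sets, are not given in the sources used here. RMA shrinks small signals toward a common background, which compresses folds of weakly expressed genes. The number of arrays limits the precision, and detection calls were not used.

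The deposited values of 36685 probe sets were used without further correction. The platform annotation gave 1 gene symbol to 14824 of them, several to 829 and none to 21032. Where a gene outside the 7 had several probe sets, it was represented by the probe set highest on average in the 6 livers, and each of the 7 had 1 probe set.

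Groups came from the sample labels. Each of the 3 comparisons was fitted to its own arrays with limma 3.58.1 (lmFit and eBayes, two-sided) in R 4.3.3, and p-values were adjusted over every probe set tested, with a threshold of 0.05. The script was tested on simulated data. Other steps and plots used Python 3.11.15 with numpy 2.4.6, pandas 2.3.3 and matplotlib 3.10.9. Promoters were taken from RefSeq (GRCr8).

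The members, the 14 pathway lists, the 8 lists of cell type markers and the plasma protein list were chosen with earlier results of these data known. Genes named are the 7, list members that passed between the liver groups or else the 2 with the largest absolute difference, Igfbp1, Apoc2, G6pc, Klb, Fgfr4 and Ppara, and the 3 likest genes of each member. Csf1r, Lum, Dcn, Atf4 and the ATF4 targets higher in BMDM were named after their values were seen.

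Alternatives were a fit of all 9 arrays, only probe sets above the median level, only probe sets with 1 symbol, a trended and robust prior, quantile normalization again, centring on array medians or, between liver groups, on plasma protein genes, omission of each array in turn, and a block for the replicate number.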

Additional observations from a re-analysis of the deposited data

Results flagged for a closer look

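Among the 7 genes and the other named genes, 37 in all, 3 had 1 CSF1-Fc liver far from the other 3, by the gap of that liver to its nearest neighbour as a share of the range of the group. Such a gap arises by chance in about 1 in 20 groups of 4, and none of the 7 genes had one. Chac1, an ATF4 target, was at 7.40 in CSF1-Fc liver 2 and at 5.62 to 5.70 in the other CSF1-Fc livers. Trib3, another ATF4 target, was at 5.52 in CSF1-Fc liver 3 and at 5.24 to 5.26 in the others. Fabp1, a PPARA target, was at 9.28 in CSF1-Fc liver 3 and at 10.06 to 10.13 in the others.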

How the results depend on the processing

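Of 280 values of the 7 genes recomputed under alternatives over the 3 comparisons, 259 kept their direction and side of the threshold, 14 lost their call and 7 changed sign; the cause was not tested. All sign changes were between the liver groups, in genes that had not passed. Foxo1 turned to 0.09 and Tat to 0.07 after centring on plasma protein genes, which moved the median of all probe sets to 0.13 in place of -0.03, and Tat turned to 0.11 after quantile normalization. Without single arrays, Insr ran from -0.80 to 0.14, Foxo1 from -0.49 to 0.33 and Tat from -0.19 to 0.03. Ppp1r3b ran from -1.66 to -1.46, with its call lost without any CSF1-Fc liver or PBS liver 2. In BMDM minus CSF1-Fc liver, Fgf21 ran from -1.89 to -1.28, and in BMDM minus PBS liver Insr ran from -3.04 to -2.10 and Foxo1 from -2.96 to -2.15, with the lost calls named above.

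Counts of probe sets depended more on the setting. Between the liver groups, 449 were higher and 93 lower as reported. Higher ones numbered 727 after centring on plasma protein genes and 0 to 1371 without single arrays. Lower ones numbered 48 with all 9 arrays in the fit, 156 above the median level, 217 with 1 symbol, 57 after centring on plasma protein genes and 0 to 1257 without single arrays. With 1 symbol only, 3275 were higher and 3758 lower in BMDM minus CSF1-Fc liver, against 7292 and 6425 as reported, where fewer probe sets were tested. Quantile normalization moved the median difference there to 0.02 in place of 0.14. In BMDM minus PBS liver 3754 were higher as reported, 6159 with all 9 arrays, 2200 with 1 symbol and 1778 to 3747 without single arrays, and 3815 were lower as reported and 2026 to 3438 without single arrays. The 7 genes passing there numbered 6 as reported, 4 without PBS liver 1 and 5 without PBS liver 2, BMDM 1 or BMDM 2.

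Whether the replicate numbers pair the samples could not be told. Deviations of equally numbered arrays from their group means correlated at 0.02 and 0.18 between the liver groups. The values were -0.02, -0.05 and -0.04 between BMDM and CSF1-Fc livers, and 0 and -0.12 between BMDM and PBS livers. Deviations of the PBS livers are equal and opposite, so these correlations cannot decide it: CSF1-Fc liver 3 was at 0.21 with PBS liver 1 and -0.21 with PBS liver 2. With a replicate block, which leaves 1 residual degree of freedom between the liver groups, 0 probe sets passed there in either direction (limma, 1606 higher and 1086 lower unadjusted), Ppp1r3b was at -1.47 (adjusted p = 0.543) and Fgf21 at -1.80 (adjusted p = 0.571). The block changed no other call of the 7 genes. Where leaving out a PBS liver left 1, that array was assumed to vary like the other group. Averaging a gene's probe sets could not be run, since each of the 7 genes had 1.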
